A study of Mus musculus with 16 samples.

Results

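The genes that write, keep and remove DNA methylation were followed through the first 6 days of reprogramming of mouse embryonic fibroblasts, with and without knockdown of Wdr5, Brca1 or Bard1. They are the 8 rows of the expression table whose symbols are Dnmt1, Uhrf1, Dnmt3a, Dnmt3b, Tet1, Tet2, Tet3 and Tdg, out of 18990 genes in all. The rows were picked by symbol, with no threshold on a measured value.

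The cells were primary embryonic fibroblasts (MEFs) of BL6 strain and wild-type genotype, reprogrammed at passage 2. All of them carried 2 lentiviruses, delivered at a multiplicity of infection of 1, namely the tet-STEMCCA cassette (Oct4, Sox2, Klf4 and c-Myc under doxycycline control) and rtTA. Pooled siRNAs at 40 nM were directed at no gene (nt control), Wdr5 (siWdr5), Brca1 (siBrca1) or Bard1 (siBard1), and 24 h later all groups were induced alike with 2 ug/mL doxycycline. The medium of all groups held LIF, 50 ug/mL of ascorbic acid, 3 uM of the GSK3 inhibitor chiron and 0.25 uM of the TGFb inhibitor Alk5i. RNA was taken at day 3 and day 6, with 2 libraries for each of the 8 groups, which the study describes as independent experiments. Untransfected or uninduced cells are not analysed here, so every value is one of induced cells that also received an siRNA.

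A methyl group on the cytosine of a CpG is copied to the new DNA strand after each replication by DNMT1, which UHRF1 brings to the half-methylated site. DNMT3A and DNMT3B place methyl groups on unmethylated CpGs. The TET enzymes oxidize 5-methylcytosine with the help of iron, 2-oxoglutarate and ascorbate, and TDG cuts out the most oxidized forms so that base excision repair can restore an unmodified cytosine. In reprogramming, these activities are known for their part in silencing fibroblast genes and opening pluripotency genes, and transcription of Dnmt1 and Uhrf1 is known to rise as cells enter S phase.

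The libraries held 11169738 to 26832534 reads (median 14618683.5), and levels are given as CPM, the reads of a gene relative to the library size after the authors' scaling. PC1, which held 56.9% of the variance, separated day 3 from day 6. Summed over 9 fibroblast markers the libraries held 4873 to 14516 CPM. The 6 epithelial markers stood at 20.03 to 65.4 CPM at day 3 and at 366 to 761 CPM at day 6. Pluripotency markers (11 genes) stood at 7.67 to 23.02 CPM and then at 63.4 to 537 CPM. Macrophage markers stood at 5.47 to 13.7 CPM in all, and endothelial markers at 0.800 to 2.68 CPM. At day 3 each target passed as lower under its own siRNA, with log2 fold changes of −1.31 for Wdr5, −1.57 for Brca1 and −0.62 for Bard1. Under siBrca1, Brca1 was at 37.5 CPM in replicate 1 and 19.4 CPM in replicate 2. The targets also passed as lower under other siRNAs, Bard1 by more in siBrca1 (−1.38) than under its own. At day 6 no target passed in any knockdown.

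Before the levels, stretches of DNA next to Uhrf1, Dnmt3b and Dnmt1 are shown. They come from RefSeq promoter windows on GRCm38.p6, which run from 250 bases before a start site to 50 after it. All 8 genes matched, with 13 windows between them. Letters searched on both strands were the E2F site written out as TTTCCCGC, TTTCGCGC, TTTGCCGC or TTTGGCGC, the E-box CACGTG, and TTTGAA, the cell cycle homology region (CHR). Capitals mark the letters found, which on the other strand read in reverse complement. Uhrf1 had the largest fall at day 3, and its window at the second start site holds TTTCGCGC from 185 bases before the start. Dnmt3b had the largest rise by day 6, and its stretch holds TTTGAA on the other strand. In Dnmt1, 30 bases around the TTTCGCGC letters are shown, since they lie in the 5′ UTR of the first exon of another Dnmt1 transcript. All stretches shown hold letters that were searched for. Tet1, which also rose by day 6, holds none in its window and is not shown.
Uhrf1, chr17:56304063-56304312, plus strand, no annotated exon: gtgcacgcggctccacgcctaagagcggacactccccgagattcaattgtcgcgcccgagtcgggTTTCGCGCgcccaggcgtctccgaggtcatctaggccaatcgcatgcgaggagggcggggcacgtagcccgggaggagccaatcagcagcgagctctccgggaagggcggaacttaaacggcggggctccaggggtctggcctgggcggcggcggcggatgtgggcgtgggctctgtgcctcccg
Dnmt3b, chr2:153649199-153649448, plus strand, no annotated exon: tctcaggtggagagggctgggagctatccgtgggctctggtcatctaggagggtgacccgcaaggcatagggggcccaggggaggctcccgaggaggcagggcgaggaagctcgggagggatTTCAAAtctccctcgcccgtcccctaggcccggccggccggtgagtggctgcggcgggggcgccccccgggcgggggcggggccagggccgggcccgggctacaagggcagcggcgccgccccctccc
Dnmt1, chr9:20952824-20952853, minus strand, exonic, 5′ UTR: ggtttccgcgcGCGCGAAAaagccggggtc

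Over the 13 windows, E2F letters stood in 2 (1 of Dnmt1, 1 of Uhrf1), the E-box in 2 (Tdg and Dnmt3a) and the CHR letters in 2 (Dnmt3b and Dnmt1). Of 32851 promoter windows of the same length, 2.27% held E2F letters, 7.15% the E-box and 17.9% the CHR letters. The 13 windows held 2 to 57 CpGs, the dinucleotide that the enzymes themselves act on. The Tet2 window held 57 CpGs, with an observed over expected ratio of 1.17, and the E2F-bearing windows of Uhrf1 and Dnmt1 held 33 CpGs each (ratios 0.959 and 0.910), against a median of 7 CpGs and a ratio of 0.384 over all windows. A match of letters is a description of the sequence, not of a bound site.

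**Figure D1:**
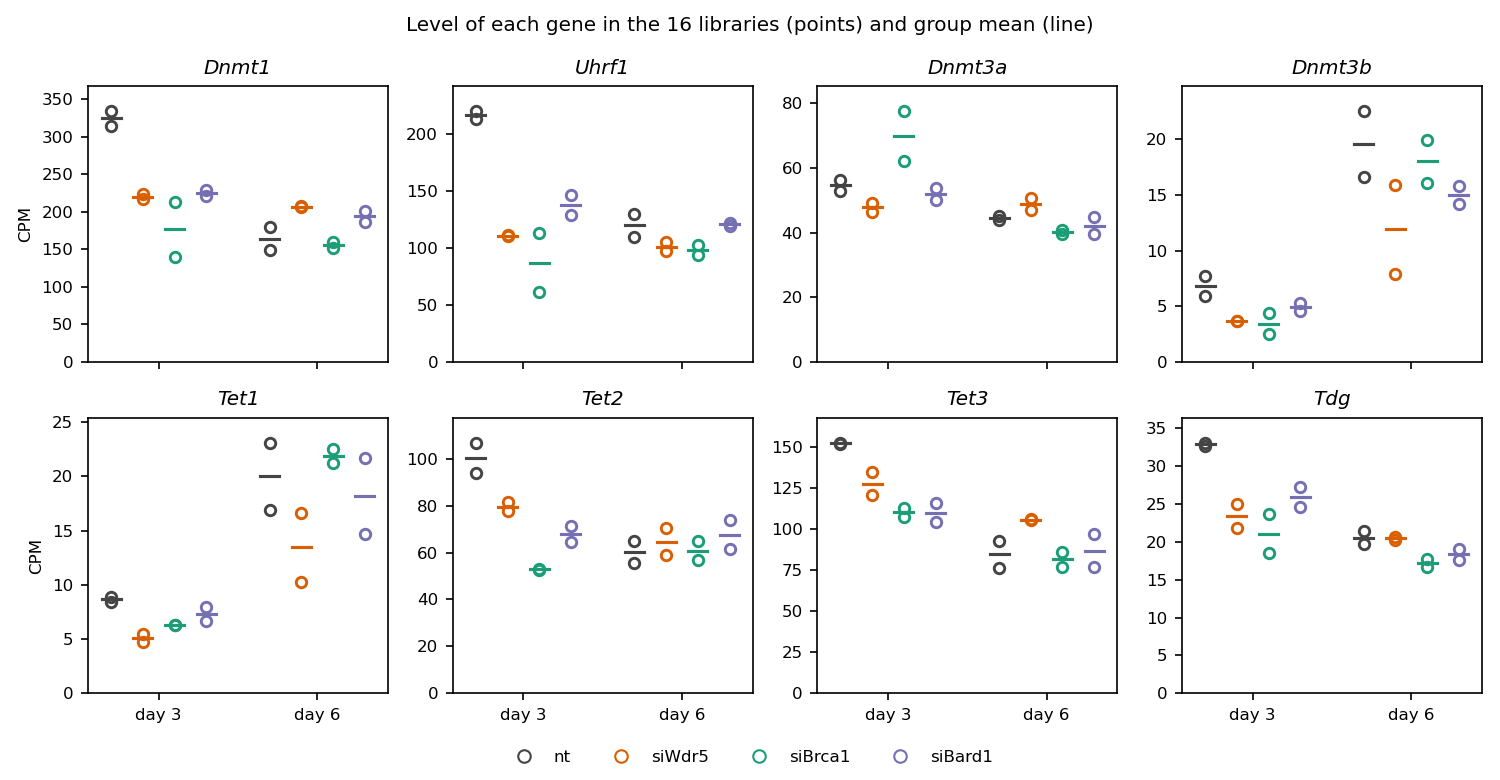
Level of each of the 8 genes in CPM (vertical axis, from 0) in the 16 libraries, by day and siRNA. Points are libraries and short lines are group means (n = 2). At day 3 both nt libraries stand above the 6 knockdown libraries in Dnmt1, Uhrf1, Dnmt3b, Tet1, Tet2, Tet3 and Tdg, and Dnmt3b and Tet1 are the genes that are higher at day 6. The share of all genes with such a separation was not computed.

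At day 3, 7 of the 8 genes were at their highest in the nt control, with Dnmt3a the exception, and knockdown lowered most of them. The share of all tested genes with nt clear of every knockdown library was not computed. The separations of libraries given below are therefore descriptions. A gene passed at an adjusted p below 0.05 (limma, 14028 genes tested, Benjamini-Hochberg adjustment). In siBrca1, 6 of 8 passed as lower and 1 (Dnmt3a) as higher, beside 47.2% of all tested genes passing in either direction (21.8% as lower). In siWdr5, 6 of 8 passed as lower, beside 35.0% of all genes in either direction (16.8% as lower). In siBard1, 4 of 8 passed as lower, beside 14.5% of all genes in either direction (5.87% as lower). The 8 genes had a median log2 fold change of −0.78 under siBrca1, −0.53 under siWdr5 and −0.47 under siBard1, where the median over all tested genes was 0.0022, −0.04 and −0.02. The 3 comparisons share the same 2 nt libraries and are not independent of each other. They compare bulk RNA, in which fewer cells expressing a gene and less RNA of it per cell cannot be told apart. The p-values rest on a spread per gene that is pooled over all groups of the fit and moderated over all genes. They do not measure the spread within a single group of 2 libraries.

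**Figure D2:**
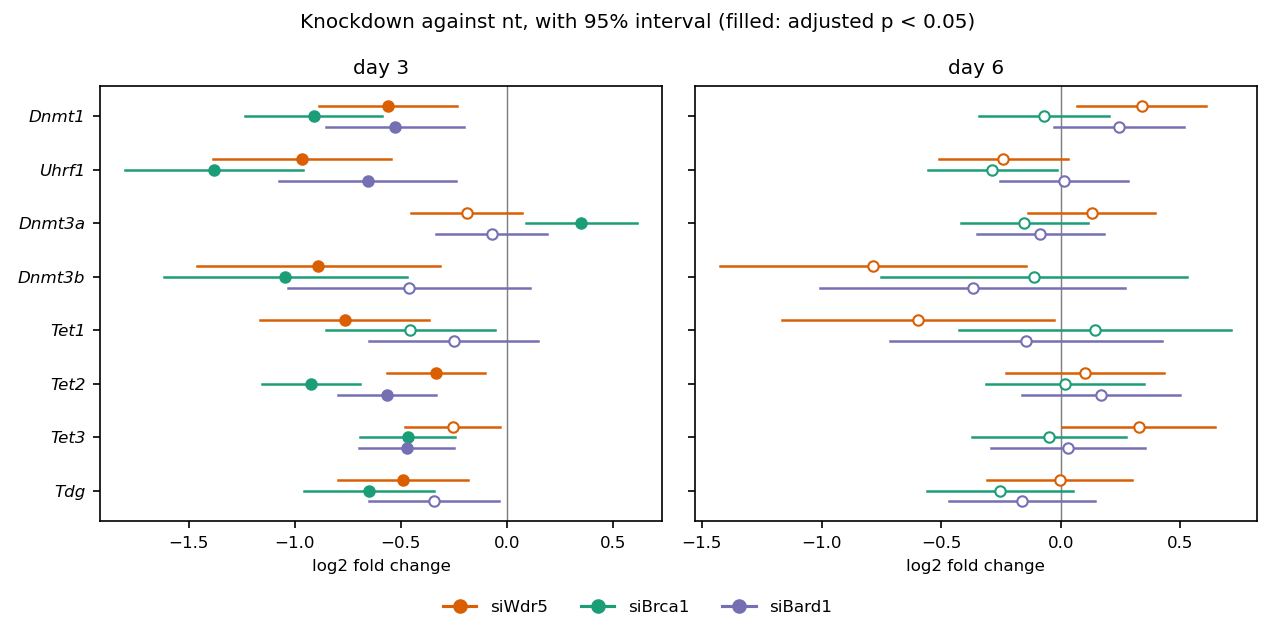
Log2 fold change against the nt control (horizontal axis) with its 95% interval from limma, for each gene and knockdown at day 3 and day 6. Filled points passed at adjusted p below 0.05, which 17 of 24 did at day 3 and 0 of 24 at day 6.

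Maintenance of methylation rests on Dnmt1 (chr9:20907209-20959888, minus strand) and Uhrf1 (chr17:56303321-56323486, plus strand), and these were the most abundant of the 8 per length. In the nt control at day 3, Uhrf1 stood at 50.8 ± 1.22 (SD, n = 2) and Dnmt1 at 44.0 ± 1.87 CPM per kilobase of merged annotated exons. The next gene on that scale, Tet3, stood at 9.12 ± 0.0220, and the lowest, Tet1, at 0.553 ± 0.0216.

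Dnmt1 was at 315 and 334 CPM in the nt libraries at day 3. It was at 217 and 223 CPM in siWdr5, at 214 and 139 CPM in siBrca1, and at 229 and 221 CPM in siBard1. No knockdown library reached the lower nt library, and within siBrca1 the replicates stood further apart than in any other day 3 group. The log2 fold change was largest in siBrca1 at −0.91 (adjusted p = 0.000284), with −0.56 (SE 0.15, adjusted p = 0.0112) for siWdr5 and −0.53 (0.0341) for siBard1. Without replicate 2 of siBrca1 the first of these was −0.60 (adjusted p = 0.000181). The siWdr5 call was lost without replicate 2 of nt or without either siWdr5 library (adjusted p = 0.0677 to 0.0905) and with no trend (0.0695). The siBard1 call was lost without any 1 of the nt, siWdr5 or siBard1 libraries (adjusted p = 0.0739 to 0.191), with no filter (0.113) and with no trend (0.143).

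Uhrf1 fell furthest of the 8 in each knockdown. Its 2 nt libraries were at 213 and 220.0 CPM, and the siWdr5 libraries both at 111 CPM. The siBrca1 libraries were at 113 and 61.3 CPM, and the siBard1 libraries at 146 and 129 CPM. Every knockdown library was below every nt library, and the lowest was siBrca1 replicate 2, the library with least Brca1. That library also held the least of the replication genes Mcm5 (40.0 CPM), Mcm7 (54.7 CPM) and Pcna (40.9 CPM). A link of Uhrf1 to the level of Brca1 was not tested. The difference from nt was −1.38 (adjusted p = 9.23e-05) for siBrca1, −0.97 (SE 0.19, adjusted p = 0.00204) for siWdr5 and −0.66 (0.0389) for siBard1. The siBrca1 and siWdr5 calls held in each alternative tried on single genes and with any library left out (siBrca1 −1.82 to −0.94), whereas the siBard1 call was lost without any 1 of the nt, siWdr5 or siBard1 libraries (adjusted p = 0.0846 to 0.249), with no filter (0.137), with no trend (0.162) and when centred (0.052).

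Because both genes are read from the same library, their ratio does not depend on the scaling between libraries. Uhrf1 over Dnmt1 was 0.676 and 0.658 in nt at day 3, against 0.512 and 0.495 in siWdr5 and 0.529 and 0.440 in siBrca1. In siBard1 it was 0.636 and 0.583. Relative to its partner Uhrf1 was thus lower in each of the 6 knockdown libraries than in both nt libraries. At day 6 the ratio was 0.737 and 0.724 in nt and 0.510 and 0.470 in siWdr5. It was 0.676 and 0.586 in siBrca1, and 0.608 and 0.636 in siBard1. All 6 knockdown libraries were thus below both nt libraries of day 6. Those of siWdr5 and siBard1 were also below both nt libraries of day 3.

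De novo methylation is carried by Dnmt3a (chr12:3806007-3914443, plus strand) and Dnmt3b (chr2:153649450-153687730, plus strand), and the pair behaved differently. Dnmt3a was at 52.8 and 56.4 CPM in nt, 49.2 and 46.5 CPM in siWdr5, and 53.7 and 50.2 CPM in siBard1 at day 3. In siBrca1 it was at 62.3 and 77.7 CPM, the only knockdown in which any of the 8 genes was above the nt range at day 3. Its log2 fold change there was 0.35 (SE 0.12, adjusted p = 0.0293), a call lost without either nt library or without siBrca1 replicate 2 (log2 fold change 0.19 and adjusted p = 0.246 without the latter), and also with a fit of the 4 libraries alone or with no trend (adjusted p = 0.0649 and 0.0759). In siWdr5 and siBard1 the values were −0.19 (95% interval −0.45 to 0.07) and −0.07 (−0.33 to 0.19), and neither passed.

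Dnmt3b, by contrast, was a low gene at day 3, with 33 to 133 reads a library. It was at 5.87 and 7.72 CPM in nt, 3.62 and 3.65 CPM in siWdr5, 4.34 and 2.46 CPM in siBrca1, and 5.25 and 4.55 CPM in siBard1. All 6 knockdown libraries were below both nt libraries. Dnmt3b fell in siWdr5 (log2 fold change −0.89, SE 0.27, adjusted p = 0.0191) and siBrca1 (−1.04, adjusted p = 0.00542), and its −0.46 in siBard1 did not pass (95% interval −1.03 to 0.11, adjusted p = 0.258). The siBrca1 call was lost without siBrca1 replicate 2 (−0.63, adjusted p = 0.0507) or nt replicate 2 (−0.85, adjusted p = 0.0675), and the siWdr5 call without nt replicate 2 or either siWdr5 library (adjusted p = 0.0941 to 0.165) and with no filter on low genes (0.0603).

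Of the 3 TET dioxygenases, Tet2 (chr3:133463679-133545139, minus strand) and Tet3 (chr6:83362373-83459084, minus strand) were the main forms at day 3, and Tet1 (chr10:62804570-62908996, minus strand) was low. Tet2 was at 107 and 94.0 CPM in nt, 81.3 and 77.6 CPM in siWdr5, 52.5 and 53.2 CPM in siBrca1, and 71.2 and 64.5 CPM in siBard1. The 4 groups did not overlap, with nt on top and siBrca1 at the bottom. The log2 fold change of Tet2 in siBrca1 was −0.92 (SE 0.11, adjusted p = 2.47e-05), which held in each alternative and with any library left out. In siBard1 it was −0.56 (adjusted p = 0.00477, or 0.101 without nt replicate 1). In siWdr5 it was −0.33 (adjusted p = 0.0276), a call lost without any 1 of the nt or siWdr5 libraries (adjusted p = 0.0551 to 0.272), with a fit of all 16 libraries, with no trend and with centring on the median gene (0.0563 to 0.0737).

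Tet3, the most abundant TET per length, was at 152 and 153 CPM in nt at day 3. It was at 135 and 121 CPM in siWdr5, 113 and 107 CPM in siBrca1, and 116 and 104 CPM in siBard1. Again no knockdown library reached the nt level. The fall was −0.47 on the log2 scale under both siBrca1 (adjusted p = 0.00226) and siBard1 (0.0101). In siBard1 it was lost without either nt library or siBard1 replicate 2 (adjusted p = 0.0791 to 0.101) and with no trend (0.0688). In siWdr5 the value was −0.26 (95% interval −0.48 to −0.03, adjusted p = 0.0703), which passed with quantile normalization, with the 4 libraries alone (0.00936 to 0.0117) and without either siBrca1 library (0.036).

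Tet1, the form known from pluripotent cells, was at 8.45 and 8.92 CPM in nt and at 4.74 and 5.51 CPM in siWdr5 at day 3. In siBrca1 it was at 6.33 and 6.33 CPM, and in siBard1 at 6.66 and 7.98 CPM. The 6 knockdown libraries lay below both nt libraries. Only siWdr5 passed (log2 fold change −0.76, SE 0.19, adjusted p = 0.0063), a call lost without nt replicate 2 or siWdr5 replicate 1 (adjusted p = 0.0577 and 0.0691). In siBrca1 the value was −0.46 (95% interval −0.85 to −0.06, adjusted p = 0.0573, passing with no trend or quantile normalization at 0.0323 to 0.0392), and in siBard1 −0.25 (−0.65 to 0.15).

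Tdg (chr10:82629828-82650799, plus strand), the glycosylase that acts after the TETs, was at 32.7 and 33.0 CPM in nt at day 3. It was at 21.8 and 25.0 CPM in siWdr5, 23.6 and 18.6 CPM in siBrca1, and 27.3 and 24.6 CPM in siBard1. Each knockdown library was below both nt libraries. Tdg fell under siBrca1 by −0.65 (SE 0.14, adjusted p = 0.00204) on the log2 scale and under siWdr5 by −0.49 (0.0164, but 0.0879 to 0.149 without either nt library or siWdr5 replicate 1). In siBard1 its value was −0.34 (95% interval −0.65 to −0.04, adjusted p = 0.116, passing at 0.039 with the 4 libraries alone and at 0.0318 to 0.0332 without either siBrca1 library). Tdg counts are uncertain, since the annotation holds a processed pseudogene, Tdg-ps, whose share in the reads was not tested, and 6.83% of its exon bases overlap Glt8d2 on the opposite strand, and whether the counting used strand is not given in the sources used here.

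Whether the knockdowns differ from each other was tested directly at day 3. Between siBrca1 and siBard1, 3 of 8 genes passed, beside 21.4% of all genes. Uhrf1 was lower in siBrca1 (−0.72, adjusted p = 0.0192) and Tet2 was lower (−0.36, adjusted p = 0.0314), while Dnmt3a was higher (0.42, adjusted p = 0.0255). Leaving out siBrca1 replicate 2 ended all 3 calls, with Uhrf1 at −0.28 (adjusted p = 0.127) and Dnmt3a at 0.26 (0.183). Leaving out replicate 1 of siBrca1 instead took Uhrf1 to −1.16 (adjusted p = 7.58e-09). Each of the 3 calls was also lost without either siBard1 library, with no filter, with the 4 libraries alone and with no trend, and that of Tet2 also without any 1 of the nt or siWdr5 libraries. Without siBrca1 replicate 1, Dnmt1 (−0.69), Dnmt3b (−0.99) and Tdg (−0.48) passed as well, and Dnmt1 passed with quantile normalization (0.043).

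Between siWdr5 and siBrca1, 2 of 8 passed, beside 15.7% of all genes. Tet2 was higher in siWdr5 (0.59, adjusted p = 0.00293, or 0.0547 without siWdr5 replicate 1) and Dnmt3a was lower (−0.54, adjusted p = 0.00902). The Dnmt3a call was lost without either siWdr5 library, without siBrca1 replicate 2 and with no trend (adjusted p = 0.0537 to 0.0989). Without siBrca1 replicate 1, Dnmt1 (0.66) and Uhrf1 (0.85) also passed as higher in siWdr5. Between siWdr5 and siBard1, 0 of 8 passed by limma (1 at an unadjusted p below 0.05, Tet1), beside 8.63% of all genes. Tet1 (−0.51, adjusted p = 0.104) and Uhrf1 (−0.31, 0.339) passed without either siBrca1 library (0.047 and 0.0243). For Dnmt1, which was nearly equal in these 2 knockdowns, the difference was −0.03 (95% interval −0.36 to 0.29).

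The same comparisons were made at day 6, where a failure to pass does not show that levels were equal. Whether a difference from nt changed between the days was tested by the interaction, given below, which 5 of 24 pairs passed. None of the 24 gene and knockdown pairs passed against nt, beside 21.8% of all genes in siWdr5, 0.0% in siBrca1 (0 genes by limma, 1123 at an unadjusted p below 0.05) and 0.0784% in siBard1. At an unadjusted p below 0.05 there were 4 pairs in siWdr5, 1 in siBrca1 and 0 in siBard1. Dnmt1 was at 149 and 179 CPM in nt, 206 and 207 CPM in siWdr5, 152 and 160 CPM in siBrca1, and 201 and 187 CPM in siBard1, so that the knockdowns no longer lay below nt. The siWdr5 value was 0.34 (95% interval 0.07 to 0.61, adjusted p = 0.0723). Uhrf1 was at 109.9 and 129.7 CPM in nt, 105 and 97.3 CPM in siWdr5, 102.6 and 93.5 CPM in siBrca1, and 122 and 119 CPM in siBard1. The siWdr5 and siBrca1 libraries thus still lay below both nt libraries, and those of siBard1 between them. The Uhrf1 value in siWdr5 was −0.24 (limma adjusted p = 0.175), which passed with quantile normalization alone (−0.46, adjusted p = 0.0447). Tet3 in siWdr5, at 106 CPM in both libraries, stood above both nt libraries (76.7 and 93.1 CPM) and did not pass.

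The widest day 6 differences were those of Dnmt3b and Tet1 in siWdr5, where the replicates disagreed. Dnmt3b was at 15.9 CPM in replicate 1 and 7.92 CPM in replicate 2, against 16.6 and 22.5 CPM in nt. Tet1 was at 16.6 and 10.3 CPM in the same libraries, against 16.9 and 23.1 CPM in nt. The log2 fold change was −0.78 for Dnmt3b (95% interval −1.42 to −0.15, adjusted p = 0.0757) and −0.60 for Tet1 (−1.17 to −0.03, adjusted p = 0.118). Without siWdr5 replicate 1 these became −1.29 (adjusted p = 0.0147) and −0.94 (adjusted p = 0.0468), and Dnmt3b also passed with the 4 libraries alone or with limma-voom (adjusted p = 0.0494 and 0.0472). Replicate 2 was the deepest library, and its pluripotency markers summed to 63.4 CPM against 157 CPM in replicate 1. The part of these markers in the result was not tested.

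From day 3 to day 6 the 8 genes went opposite ways, and in the nt control 7 of them passed, 2 as higher and 5 as lower, beside 46.2% of all genes. Dnmt3b rose from 5.87 and 7.72 CPM to 16.6 and 22.5 CPM, a log2 fold change of 1.52 (SE 0.30, adjusted p = 0.00071). Tet1 rose by 1.19 (SE 0.23, adjusted p = 0.000613), from 8.45 and 8.92 to 16.9 and 23.1 CPM. The other 5 passed as lower in nt, namely Dnmt1 by −0.99 (adjusted p = 8.65e-05), Uhrf1 by −0.86 (0.00165), Tet3 by −0.85 (7.39e-05), Tet2 by −0.74 (0.0003) and Tdg by −0.68 (0.00081). All 7 calls held under each alternative tried on single genes and without any 1 library, a fold threshold aside. Dnmt3a stood at −0.29 (95% interval −0.54 to −0.04, adjusted p = 0.0553) and passed in a fit of the 4 libraries, with a stricter filter or with the replicate block (0.017 to 0.0492), and without either siBrca1 day 3 library.

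**Figure D3:**
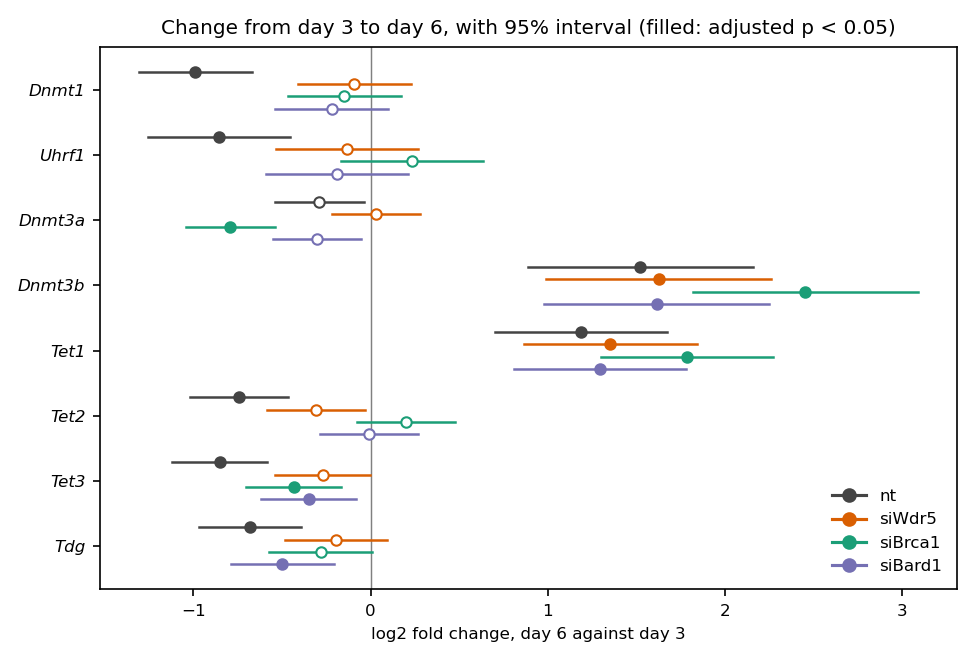
Log2 fold change from day 3 to day 6 (horizontal axis) with its 95% interval from limma, for each gene in the nt control and the 3 knockdowns. Filled points passed at adjusted p below 0.05. Dnmt3b and Tet1 lie right of 0 in all 4, and Dnmt1, Uhrf1 and Tet2 passed as lower in the nt control alone.

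Dnmt3b and Tet1 rose in each knockdown too, so all 8 of these tests passed. For Dnmt3b the log2 fold change was 2.46 under siBrca1 (adjusted p = 8.79e-06), 1.63 under siWdr5 (0.00122) and 1.62 under siBard1 (0.000753). For Tet1 it was 1.79 (adjusted p = 1.37e-05), 1.36 (0.000669) and 1.29 (0.000525) in the same order. These were the 2 genes of the 8 that moved more than 2-fold between the days. All 6 calls held under each alternative and without any 1 library.

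Fewer of the other genes passed between the days in the knockdowns than in nt. In siWdr5, 2 of 8 passed in all, beside 25.3% of all genes. Counts were 4 of 8 in siBrca1, beside 49.4%, and 4 of 8 in siBard1, beside 34.6%. The counts in siWdr5 and siBrca1 lie near the shares of all genes, so nothing particular to the 8 genes is read from them. Besides the 2 rising genes, Dnmt3a (−0.79, adjusted p = 5.54e-05) and Tet3 (−0.43, 0.00981) fell between the days in siBrca1, and Tdg (−0.50, 0.0103) and Tet3 (−0.35, 0.0433) fell in siBard1. The Tet3 call in siBrca1 was lost without siBrca1 day 6 replicate 2 (0.0678), with the 4 libraries alone (0.058) and with quantile normalization (−0.19, adjusted p = 0.274). The Tet3 call in siBard1 was lost without any 1 of 9 libraries, with −0.18 (adjusted p = 0.388) without siBard1 day 6 replicate 1. It was also lost with the 4 libraries alone (0.0587), with no trend (0.0791) and with quantile normalization (−0.23, adjusted p = 0.208). The Tdg call in siBard1 was lost without siBard1 day 3 replicate 1 or day 6 replicate 2 (0.0793 and 0.0802). For Dnmt1 the course was −0.09 in siWdr5 (95% interval −0.41 to 0.23) and −0.22 in siBard1 (−0.54 to 0.10). In siBrca1 it was −0.15 (−0.47 to 0.17), but without day 3 replicate 2 of siBrca1 it was −0.46 (adjusted p = 0.0109). Uhrf1 in siBrca1 was at 0.24 and became 0.68 (adjusted p = 0.000679) without day 3 replicate 1. Tdg in siBrca1, at −0.28, became −0.45 (0.0241) without day 3 replicate 2. Dnmt3a in siBard1 (−0.30, adjusted p = 0.058) passed when centred, with the replicate block and without either siBrca1 day 3 library, and Tet2 and Tet3 in siWdr5 passed when centred (0.0391 and 0.0472).

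Whether a knockdown's difference from nt itself changed between the days was tested by the interaction. In siBrca1 4 of 8 genes passed, beside 20.5% of all genes. The difference of siBrca1 from nt was higher at day 6 than at day 3 by 1.09 for Uhrf1 (adjusted p = 0.011), 0.94 for Tet2 (0.00421) and 0.84 for Dnmt1 (0.013), and lower by −0.50 for Dnmt3a (0.0436). Without siBrca1 day 3 replicate 2, Uhrf1 was at 0.65 (0.0335), and Dnmt1 at 0.53 did not pass (0.0614). Without nt day 6 replicate 1, Uhrf1 (0.0525) and Dnmt1 (0.0649) did not pass. The call of Dnmt3a was lost without any 1 of 11 libraries (adjusted p = 0.051 to 0.21), with no filter and with no trend, whereas that of Tet2 held throughout. Without siBrca1 day 3 replicate 1, Dnmt3b (1.34, adjusted p = 0.0274) and Tdg (0.57, 0.0381) passed too.

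In siWdr5, 1 of 8 passed (Dnmt1, 0.90, adjusted p = 0.0365), beside 4.43% of all genes. In this comparison the scaling moves the median of all genes by 0.135 on the log2 scale, and after centring on the median gene Dnmt1 was at 0.76 (adjusted p = 0.0615). The call was also lost with quantile normalization (0.0593), with no trend (0.0823) and without any 1 of 7 libraries (adjusted p = 0.0675 to 0.152). In siBard1, 0 of 8 passed by limma (4 at an unadjusted p below 0.05), beside 0.0499% of all genes. The values for Dnmt1 (0.77, adjusted p = 0.0815) and Tet2 (0.73, 0.0707) passed without either siBrca1 day 3 library (0.0197 and 0.0415). Uhrf1, at 0.67 (adjusted p = 0.184) in siBard1 and 0.73 (0.116) in siWdr5, passed under the same omission in both (0.0279 and 0.0135).

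Within libraries, the balance of the enzymes moved towards Dnmt3b and Tet1. Dnmt3b over Dnmt3a was 0.111 and 0.137 in nt at day 3 and 0.377 and 0.498 at day 6. In siWdr5 it went from 0.0736 and 0.0786 to 0.339 and 0.156, and in siBrca1 from 0.0697 and 0.0317 to 0.407 and 0.489. In siBard1 it went from 0.0978 and 0.0907 to 0.358 and 0.354. The days did not overlap in any group, and at day 3 each knockdown library lay below both nt libraries. Tet1 over Tet2 rose from 0.0791 and 0.0949 in nt to 0.306 and 0.356, and it was lowest in siWdr5 on both days, at 0.0583 and 0.0710 and then at 0.236 and 0.175. In siBrca1, where Tet2 had fallen further than Tet1, it was 0.121 and 0.119 at day 3, above both nt libraries. These ratios are of CPM and not per length, so that only their differences between libraries can be read.

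**Figure D4:**
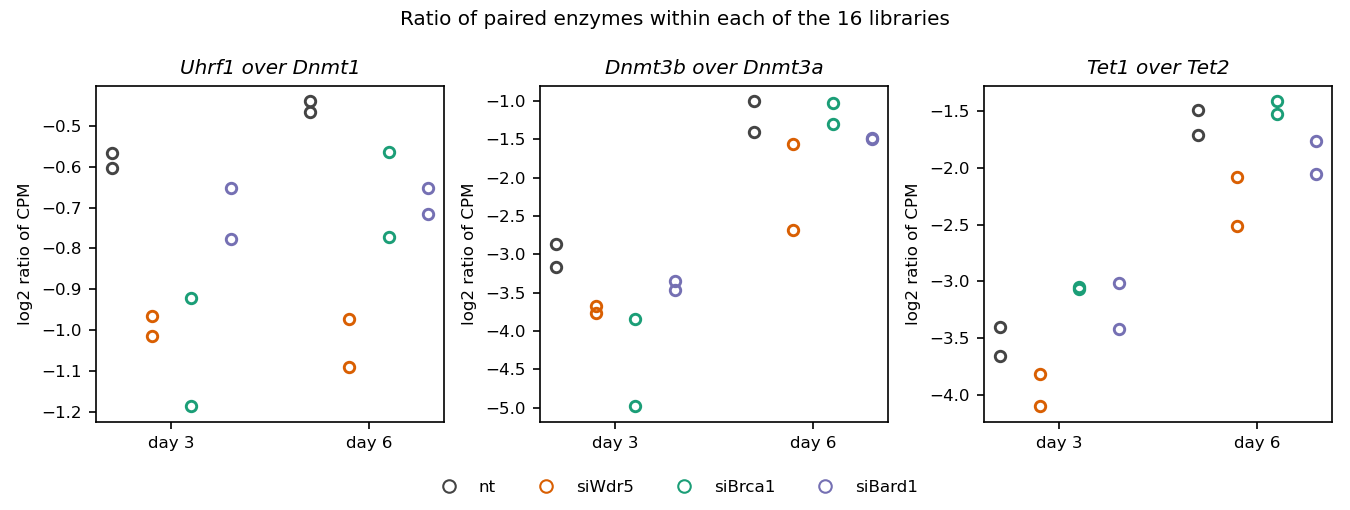
Log2 ratio of CPM within each of the 16 libraries (points) for Uhrf1 over Dnmt1, Dnmt3b over Dnmt3a and Tet1 over Tet2, by day and siRNA, with a vertical axis of its own for each. Dnmt3b over Dnmt3a and Tet1 over Tet2 are higher at day 6 in all 4 groups, and Uhrf1 over Dnmt1 is lowest in siWdr5 and in siBrca1 at day 3.

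Ordered over the 8 groups, Dnmt1, Uhrf1, Tet2, Tet3 and Tdg had nt at day 3 on top, clear of the next group in each. Dnmt1 ran from 315 to 334 CPM there down to 152 to 160 CPM in siBrca1 at day 6, which overlapped nt at day 6 and siBrca1 at day 3. Uhrf1 ended with siBrca1 at day 3 (61.3 to 113 CPM), which overlapped its neighbour siBrca1 at day 6. Tet2 was lowest in siBrca1 at day 3, clear of nt at day 6 (55.3 to 64.9 CPM) above it. Tdg was lowest in siBrca1 at day 6 (16.7 to 17.7 CPM), overlapping siBard1 of that day, and Tet3 in siBrca1 at day 6 (77.1 to 86.4 CPM), overlapping nt. For Dnmt3b the top was nt at day 6 and the bottom siBrca1 at day 3, each overlapping its neighbour (siBrca1 at day 6 and siWdr5 at day 3). For Tet1 the 4 day 6 groups overlapped in turn and stood above all day 3 groups, whose lowest was siWdr5 (4.74 to 5.51 CPM). Dnmt3a alone was highest in siBrca1 at day 3, clear of nt of that day, and lowest in siBrca1 at day 6 (39.5 to 40.9 CPM), overlapping siBard1.

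The genes most like each of the 8, by Pearson's r over the 16 libraries after each day's mean was taken out, are given as a description, since the libraries share their groups and each list was taken from 14028 genes. For Dnmt1 they were Incenp (r 0.977), Ncapd2 (0.975) and Ncaph (0.973), genes of the chromosomal passenger complex and condensin. For Uhrf1 they were Asf1b (0.986), a histone chaperone, Espl1 (0.983), the separase, and Adap1 (0.981). For Dnmt3b they included Prom1 (0.927), a membrane glycoprotein, and Lin28b (0.914), an RNA-binding protein of early cells. Dnmt3a went with Vps39, Kif3a and Mvb12b (0.898 to 0.934), Tet1 with Cep70, Alg6 and Cep72 (0.868 to 0.875) and Tet2 with Fetub, Ppif and Noa1 (0.904 to 0.922). Tet3 went with Trerf1, Stk40 and Cnnm3 (0.895 to 0.937), and Tdg with Tspan14, Riox1 and Surf6 (0.925 to 0.927). Among the 8 themselves, r was highest between Uhrf1 and Tdg (0.891), Dnmt1 and Tdg (0.874) and Dnmt1 and Uhrf1 (0.868), was 0.790 between Dnmt3b and Tet1, and was negative between Dnmt3a and 6 of the other 7.

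The partners of maintenance methylation were followed in a list of 11 genes. At day 3, 3 passed as lower in siWdr5, 6 in siBrca1 and 2 in siBard1, and none as higher, with medians of −0.17, −0.31 and −0.21. All tested genes passed in 35.0%, 47.2% and 14.5% in either direction, here and for the lists that follow, and the partners' counts lie near these shares. As lower alone, 16.8%, 21.8% and 5.87% of all genes passed, and the partners' counts lie above these. Whether the list differs from all genes was not tested. Cdca7, which targets the remodeller HELLS to chromatin, had log2 fold changes of −0.97, −1.34 and −0.63 (adjusted p = 0.000171, 8.69e-06 and 0.00941). Hells fell in siWdr5 (−0.79, 0.00218) and siBrca1 (−1.42, 1.9e-05), as did Pcna, the replication clamp (−0.78, 0.011, and −1.39, 0.000151). At day 6 in siWdr5, 2 of the 11 passed as lower, Hells (−0.52, adjusted p = 0.0484) and Dppa3 (−1.50, 0.0151), and 1 as higher, Ehmt2 (0.39, 0.0355), beside 21.8% of all genes. The latter 2 are named after their values were seen. The only listed partner of de novo methylation, Dnmt3l, had few reads, with 2 and 10 in nt, 20 and 24 in siWdr5, 11 and 15 in siBrca1, and 12 and 15 in siBard1 at day 3, and 18 to 53 at day 6. It passed as higher at day 3 in siWdr5 (adjusted p = 0.00702) and siBrca1 (0.0308), but the nt libraries are so close to the floor of 3 reads that no fold is given.

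Of 14 genes of base excision and related repair, 3 passed as higher and 7 as lower in siWdr5, 3 and 6 in siBrca1, and 2 and 4 in siBard1, with medians of −0.42, −0.32 and −0.29. The share passing was above that of all genes (35.0%, 47.2% and 14.5%) in each knockdown. Ung, the uracil glycosylase, fell in each (log2 fold changes −1.16, −1.77 and −0.94, adjusted p = 0.00419, 0.000129 and 0.0294), and so did Parp1, which senses strand breaks (−0.58, −1.03 and −0.63, adjusted p = 0.00528, 5.87e-05 and 0.00918). Among those that rose were members of the Gadd45 family of stress-induced adaptors. Gadd45g rose by 1.00, 1.33 and 0.65 (adjusted p = 0.000111, 7.72e-06 and 0.00685) and Gadd45b by 0.77, 0.91 and 0.51 (0.00137, 0.000221 and 0.0338). By day 6 in siWdr5 1 passed as higher, Gadd45g (1.30, adjusted p = 0.0085), and 1 as lower, and in siBrca1 and siBard1 none did.

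In the list of 6 genes that regulate or supply the TETs, 1 passed as higher at day 3 in each knockdown and 2, 2 and 1 as lower, numbers too small to set apart from the share of all genes (35.0%, 47.2% and 14.5%). The riser was Cxxc5, a CXXC zinc finger protein of the family that binds unmethylated CpG, at 1.08, 1.02 and 0.46 (adjusted p = 9.3e-05, 7.83e-05 and 0.0437). Idh2, which makes 2-oxoglutarate in mitochondria, fell in each (−0.40, −0.35 and −0.42, adjusted p = 0.00804, 0.0109 and 0.0147). Of 8 readers of methylated CpG, 2, 3 and 1 passed as higher and 0, 1 and 1 as lower, near the shares of all genes (35.0%, 47.2% and 14.5%), so that nothing particular to readers is read from them. Zbtb38 rose by 0.59, 1.04 and 0.40 (adjusted p = 0.00112, 1.09e-05 and 0.0278), and Zbtb4 by 0.62 and 1.30 in siWdr5 and siBrca1 (0.00556 and 1.89e-05), with 0.38 in siBard1 that did not pass. Mbd4, a reader that is also a glycosylase, fell in siBrca1 (−0.84, adjusted p = 0.00257) and siBard1 (−0.64, 0.0395). At day 6, 4 of the 8 readers passed as higher in siWdr5, beside 16.1% of all genes as higher (21.8% in either direction), and 0 in siBrca1 and siBard1. Of 12 germline genes known to be kept silent by methylation, 1 (Ddx4) matched a row, with 2 to 59 reads a library and under the level needed for the test.

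S phase genes, a list of 18 replication genes, were taken beside Dnmt1 and Uhrf1, which are known to be cell cycle genes. At day 3, 14 passed as lower in siWdr5, 17 in siBrca1 and 4 in siBard1, and none as higher, with medians of −0.74, −1.21 and −0.43. In nt from day 3 to day 6, 11 passed as lower and 2 as higher (median −0.61). Of all genes 46.2% passed there in either direction, and 27.1% as lower. In siBrca1 over the same days 8 passed as higher and 1 as lower (median 0.44). Of all genes 49.4% passed there in either direction, and 20.5% as higher. In siWdr5 6 passed as higher and 1 as lower between the days, and in siBard1 5 and 1. Of all genes 14.9% and 17% passed there as higher. At day 6 the list's median against nt was 0.07, 0.0081 and 0.15. In siWdr5 2 genes of the list passed then as higher and 3 as lower, with values from −0.88 to 0.64. In siBrca1 and siBard1 none passed at day 6. Rfc4, a clamp loader subunit, fell in siWdr5 (−1.24) and siBrca1 (−1.36) at day 3, and its −0.40 in siBard1 did not pass (adjusted p = 0.0989). Cdt1, which licenses origins, fell in each (−0.75, −1.12 and −0.82). Of 9 fibroblast markers at day 3, 7 passed as higher in siWdr5, 6 in siBrca1 and 1 in siBard1, and none as lower. All genes passed in 35.0%, 47.2% and 14.5%, and the siBard1 count is not above its share. The markers' medians were 0.68, 0.55 and 0.26, and their lowest values 0.24, −0.39 and −0.13. The part of the number of cells in S phase, or of the mix of cells, in the falls of the 8 genes was not tested.

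**Figure D5:**
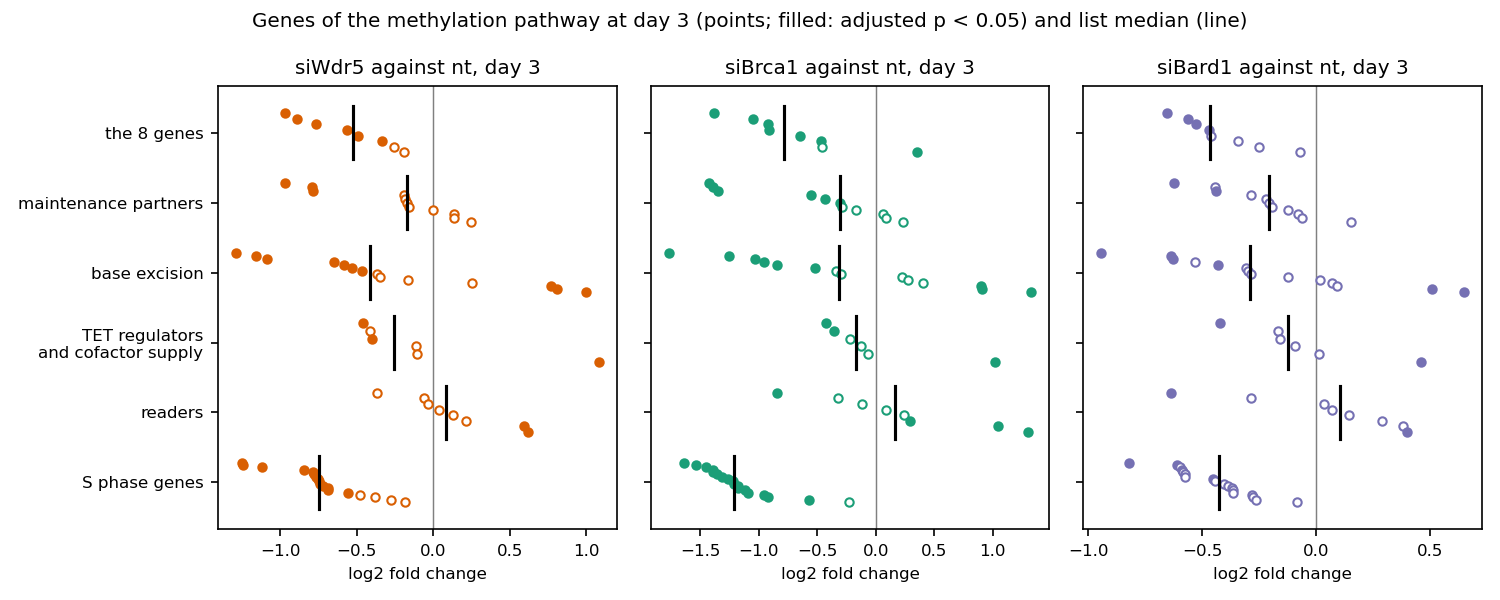
Log2 fold change against nt at day 3 (horizontal axis) for the genes of 6 lists in each knockdown. Points are genes, filled where adjusted p was below 0.05, and black lines are list medians. Medians of the S phase list (−0.74, −1.21 and −0.43) and of the 8 genes (−0.53, −0.78 and −0.47) lie below 0 in all 3 knockdowns, and the readers' medians lie above 0.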

How the data were processed

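Ribosomal RNA was depleted from 200 ng total RNA, and the authors aligned paired reads to mm10 with STAR 2.5.2b and computed log-CPM with edgeR 3.20.9. The deposited values are log2 CPM, scaled between libraries and raised by a prior count of 1.57 to 3.57 reads. The read counter, annotation and low-count filter are not given in the sources used here. All values turned back into whole reads (100%, tolerance 0.1), and 3 reads lie at 0.115 to 0.260 CPM. Floors cover counting error only.

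The 14028 genes whose log2 CPM averaged 0 or more, all 8 genes among them, were tested with limma 3.58.1 in R 4.3.3: 1 mean per group, moderation with a trend, two-sided p-values, Benjamini-Hochberg over all genes. Knockdowns were compared within a day in 8 libraries, days and interactions in 16. The authors' test used read counts with DESeq2, and limma stands in for it. The test was tried on simulated data. The 8 genes, the lists and the promoter letters were chosen with earlier results of these data known. Named are the 8 genes, 2 to 4 genes a list with the lowest adjusted p at day 3, and the 3 genes most like each, of which 1 is not reported here. Gene positions come from GENCODE vM21 (GRCm38), which need not be the authors' annotation. Alternatives were filters, fits, pseudocounts of 1 and 0.1, scalings, a replicate block, limma-voom on the whole reads and leaving out each library.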

Additional observations from a re-analysis of the deposited data

Results flagged for a closer look

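Of the 24 interactions of knockdown and day, 5 passed (limma, adjusted p below 0.05), which says that the difference from nt was not the same on the 2 days. In siBrca1 these were Uhrf1 (1.094 on the log2 scale, adjusted p = 0.011), Tet2 (0.9412, adjusted p = 0.00421), Dnmt1 (0.841, adjusted p = 0.013) and Dnmt3a (−0.5022, adjusted p = 0.0436). In siWdr5 it was Dnmt1 (0.899, adjusted p = 0.0365). A positive value means that the knockdown stood higher relative to nt at day 6 than at day 3. The 4 positive interactions belong to genes that passed as lower at day 3 in that knockdown, and Dnmt3a had passed as higher. They share the nt libraries, and nt itself fell between the days in Dnmt1, Uhrf1 and Tet2. Groups of 2 libraries were not tested for outlying libraries.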

How the results depend on the processing

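With the fold threshold of the study (absolute log2 fold change above 1) the passing pairs fell from 17 to 2 at day 3, from 17 to 8 between days, from 5 to 1 for the interaction and from 5 to 0 between knockdowns. At day 6 against nt, where 0 passed, 1 did with the 4 libraries alone, with quantile normalization and with limma-voom. The interaction count went from 5 to 3 with no trend, and the count between knockdowns from 5 to 2 with no filter, 2 with the 4 libraries and 1 with no trend. With libraries left out in turn, where a lone library is assumed to vary like the other groups, the counts ran from 7 to 19 at day 3 (7 without nt replicate 2, 10 without nt replicate 1 or siWdr5 replicate 1), 0 to 2 at day 6 (2 without siWdr5 replicate 1), 15 to 21 between days, 1 to 11 for the interaction (1 without nt day 6 replicate 1, 11 without siBrca1 day 3 replicate 1) and 2 to 12 between knockdowns (12 without siBrca1 replicate 1). The cause was not tested. Of 128 gene and comparison pairs, 78 kept their side of the threshold in each alternative but the fold threshold and with any library left out, and 0 turned direction while passing. With the replicate block the counts were 17, 0, 19, 5 and 5, in the order day 3, day 6, days, interaction and between knockdowns. The r of replicate differences between groups was −0.0931 to 0.0721 at day 3 and −0.0696 to 0.26 at day 6, where 3 of 6 pairs of groups were over 0.1, so the numbers were not taken as pairs, though some day 6 libraries deviated together. Scaling moved the share of higher calls over all genes by more than 10 points in several comparisons. In siWdr5 these were day 6 (73.9% of calls higher, 63% when centred), the course (58.8% and 41.4%) and the interaction (76.7% and 33.5%). At day 3 they were siWdr5 against siBard1 (56.2% and 69.9%) and against siBrca1 (35% and 45.7%). The siBard1 interaction, with 7 genes called, went from 42.9% to 22.9%. Depth limits Dnmt3b and Tet1 most, with 33 to 458 reads a library.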
